A study of Homo sapiens with 105 samples.

Results

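Vk2 cells exposed to nonoxynol-9 (N-9), a nonionic surfactant once used as a vaginal spermicide, were compared with untreated Vk2 cells. Vk2/E6E7 is a line of human vaginal epithelium immortalized with the papillomavirus genes E6 and E7, and every array came from this 1 line, which was kept in serum-free keratinocyte medium with epidermal growth factor. The 9 N-9 arrays (12.5 μg/ml for 6 h, replicates 1 to 9) were set against 53 arrays of cells in growth medium alone (GM), chosen by their labels out of the 105 arrays of the series. GM replicate 52 was left out because its values did not follow the row order of any other array. Each array measured 54613 probesets beside 62 control probesets, and levels are log2 signals that were quantile normalized across arrays. The remaining arrays served for comparison: the non-inflammatory compounds (NIC) hydroxyethyl cellulose (HEC) and carboxymethyl cellulose (CMC), both gels at 1 mg/ml with 9 arrays each, and the other pro-inflammatory compounds (PIC), namely TNF-α at 40 ng/ml (5 arrays used), Pam3CSK4 at 10 μg/ml, MALP2 at 200 ng/ml and imiquimod (IMQ), the last 3 with 6 arrays each. All treatments lasted 6 h. Comparisons of treatments with GM share the GM arrays, and those of N-9 with other treatments share the N-9 arrays, so they are not independent of each other. The labels give 30 mg/ml for IMQ while the study's methods give the same figure in μg/ml.

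The cells carried epithelial markers in both groups. The summed linear signal of 8 markers listed for keratinocytes, among them KRT5, KRT14, EPCAM and CDH1, ranged from 115685 to 156354 in GM and from 127452 to 146592 with N-9. None of the 8 differed, although 2 were higher without quantile normalization. The sum of 6 glandular epithelium markers ranged from 10215 to 32012 in GM and from 15532 to 24156 with N-9. Sums of 10 leukocyte, 11 fibroblast and endothelial and 5 melanocyte markers reached at most 1701, 2305 and 720 in an N-9 array, and no marker of these lists passed the test but CD3D, a dim probeset (log2 change 1.13, adjusted p = 0.0343, which rises to 0.372 when runs of arrays are a block). GAPDH (14.02 to 14.72 in GM, 14.16 to 14.62 with N-9) and ACTB (14.80 to 15.18 and 14.95 to 15.15) overlapped fully. Without quantile normalization both were higher with N-9, by 0.40 (adjusted p = 0.0185) and 0.37 (adjusted p = 0.0242) on the log2 scale. The 3' minus 5' difference of the ACTB control probesets, a measure of RNA integrity, was 0.39 ± 0.11 with N-9 (SD, n = 9), 0.43 ± 0.28 in GM (n = 53) and 0.95 ± 0.68 with IMQ (n = 6).

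The order of the rows differed within the table. In 23 arrays, which include N-9 replicates 7 to 9, 14 GM arrays, 3 IMQ arrays and 3 MALP2 arrays, 1118 rows in 6 stretches of the table held the value of another probeset, which is where a sort that puts the separator of the probeset name before the digits, rather than after them, would place it. Over these rows the 23 arrays lay at least 1.80 log2 units on average from the median array as deposited and at most 0.804 once the rows were moved, whereas the other arrays lay at most 0.972 away as deposited. Gene values below use none of these probesets, which leaves 19678 genes with 1 probeset each, and among the list genes DDIT4 and CDC20 were lost in this way. N-9 arrays of 3 consecutive replicate numbers, called a run here, deviated from the N-9 mean together (median r of 0.26 across probesets within runs and -0.28 between runs). Replicates 7 to 9 also had a lower median signal as deposited (6.57 to 6.65 on the log2 scale, against 6.83 to 6.97 in replicates 1 to 6) and a higher 3' minus 5' difference of GAPDH (0.33 to 0.39 against -0.25 to -0.15). The 14 GM arrays with displaced rows resembled them, with medians of 6.33 to 6.69 and GAPDH differences of 0.24 to 0.44. GM replicates 1 to 9 hold none of these arrays and gave 6.73 to 6.91 and -0.34 to -0.18. The part of these traits in the results was not tested. The labels number the arrays as biological replicates without saying which cultures they came from. The p-values and standard errors (SE) therefore cover the variation from array to array, part of which may be technical. They take the arrays of a run as independent, except where runs are said to be a block.

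A surfactant inserts into lipid membranes. Cells whose membranes are perturbed are known to respond through several routes that overlap in time: mitogen-activated kinases switch on immediate early transcription factors such as FOS and ATF3 and their own phosphatases, membrane-bound growth factors such as HBEGF can be shed and resynthesized, and stress in the endoplasmic reticulum (ER) is sensed by PERK, IRE1 and ATF6. PERK phosphorylates eIF2α, which slows translation and favours ATF4 and its target DDIT3 (CHOP). IRE1 splices XBP1 mRNA, and ATF6 and XBP1 switch on the ER chaperones. Epithelial cells also release cytokines of the IL-1 family when damaged, and IL1RL1 encodes the receptor (ST2) of one of them, IL-33.

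Promoters are shown first for some genes of these routes that were higher with N-9, chosen because they hold one of the letter patterns searched and not by the size of their change. RefSeq promoters of build GRCh38.p14, from 250 bases before to 50 bases after each start, were searched on both strands for fixed letters. Shares are of genes, and a gene counts when the promoter of any of its starts has a match. The ER stress element (ERSE), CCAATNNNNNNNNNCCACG, was found in 8 of 22 ER chaperone and ER-associated degradation (ERAD) genes (36.4%) and in 0.0916% of 27305 genes. The sequences that follow are 90 bases each, 5' to 3' on the gene's strand, with the motif in capitals. HSPA5 (BiP, the main ER chaperone) lies at chr9:125241356-125241445 on the minus strand, HSP90B1 (GRP94) at chr12:103930180-103930269 on the plus strand, XBP1 at chr22:28800570-28800659 on the minus strand and CRELD2 at chr22:49918518-49918607 on the plus strand.
HSPA5: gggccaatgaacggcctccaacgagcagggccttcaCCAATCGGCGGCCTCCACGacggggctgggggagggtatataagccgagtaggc
HSP90B1: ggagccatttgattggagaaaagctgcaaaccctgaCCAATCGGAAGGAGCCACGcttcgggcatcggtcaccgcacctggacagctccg
XBP1: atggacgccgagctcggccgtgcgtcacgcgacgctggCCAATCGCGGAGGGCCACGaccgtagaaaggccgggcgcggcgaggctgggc
CRELD2: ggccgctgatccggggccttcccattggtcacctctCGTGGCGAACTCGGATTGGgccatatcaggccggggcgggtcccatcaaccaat

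The composite site bound by ATF4 with C/EBP partners, TGATGNAA, was found in 6 of 14 genes of cytosolic aminoacyl-tRNA synthetases (42.9%), in 2 of 12 genes of the integrated stress response (16.7%) and in 4.46% of all genes. It is shown for CHAC1 (chr15:40953221-40953310, plus strand), CEBPG (chr19:33374023-33374112, plus strand), HERPUD1 (chr16:56931925-56932014, plus strand) and AARS1 (chr16:70289645-70289734, minus strand), some of which carry it on the opposite strand.
CHAC1: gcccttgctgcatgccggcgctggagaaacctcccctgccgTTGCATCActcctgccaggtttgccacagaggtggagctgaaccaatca
CEBPG: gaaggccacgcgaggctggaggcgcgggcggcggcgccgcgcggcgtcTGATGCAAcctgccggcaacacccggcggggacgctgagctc
HERPUD1: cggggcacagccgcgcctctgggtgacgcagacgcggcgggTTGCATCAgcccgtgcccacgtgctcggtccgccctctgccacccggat
AARS1: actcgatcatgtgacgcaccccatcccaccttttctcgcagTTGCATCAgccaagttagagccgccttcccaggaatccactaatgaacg

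The cAMP response element (CRE), TGACGTCA, which ATF and CREB proteins can bind, was found in 2.25% of all genes, among them PPP1R15A (chr19:48872322-48872411, plus strand) and DUSP1 (chr5:172771272-172771361, minus strand). The heat shock element (HSE), GAANNTTCNNGAA, was found in 5 of 12 heat shock genes (41.7%) and in 0.608% of all genes, and that of HSPA6 (chr1:161524427-161524516, plus strand) is shown. Matches describe these letters in these windows and do not show that a factor bound them. The AP-1 letters TGACTCA or TGAGTCA overlap the CRE in part and were found in 6.05% of all genes, including DDIT3.
PPP1R15A: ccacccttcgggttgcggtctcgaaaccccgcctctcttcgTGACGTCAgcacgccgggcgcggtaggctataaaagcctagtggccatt
DUSP1: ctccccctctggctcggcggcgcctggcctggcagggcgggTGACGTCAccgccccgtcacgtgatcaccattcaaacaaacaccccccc
HSPA6: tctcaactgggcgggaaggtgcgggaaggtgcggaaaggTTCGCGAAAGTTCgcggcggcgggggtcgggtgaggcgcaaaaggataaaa

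The share of the array that differed depended on the call. With a call that asks for a fold above 2 and an adjusted p below 0.05, 2377 of 54613 probesets differed from GM (4.35%), of which 1236 were higher (2.26%) and 1141 lower (2.09%), and 39 of them lay on displaced rows. Without normalization beyond the deposited scaling the split was 2292 higher and 627 lower, and the median of all probesets then lay at 0.16 on the log2 scale, against -0.01 after quantile normalization. Each array holds the RNA of many cells, so that fewer cells of a kind and less RNA per cell cannot be told apart. Counted per gene at an adjusted p under 0.05 with no fold limit, 6.69% of 19678 genes were higher and 13.3% lower, with a median log2 change of -0.05, and these shares are the background for the gene lists below. All 9 N-9 arrays lay above all 53 GM arrays for 40 genes (0.203%) and below all of them for 17 genes (0.0864%). Of 590 genes in the lists that had a probeset, 163 were higher and 96 lower. With runs as a random block in the same fit, 1295 probesets passed both thresholds (674 higher and 621 lower), and where the block takes a gene named below past 0.05, its adjusted p is given. The choice of GM arrays mattered as well. GM replicates 1 to 9 hold none of the arrays with displaced rows, to which N-9 replicates 7 to 9 belong. Against GM replicates 1 to 9 alone (GM 1 to 9), the arrays with the same replicate numbers as N-9, 1678 probesets passed both thresholds, and 54 of the 132 named genes that passed with all GM arrays did not. For 29 of these 54 the change was also over 1.5 times smaller or of the opposite sign. Of the genes described here, ATG5, CAV1, CCL26, CD3D, CDT1, CGN, CXCL1, DNAJB1, DNAJB4, DUSP7, FOSB, GBP1, GBP2, HES1, HSD17B7, HSPH1, HTRA1, IL1R1, IL1RL2, ITGA2, KRT19, LRRC43, MT1X, NFKBIA, NRG1, PDIA6, PGK1, PLAU, S100A7, SPRED2, TARS1 and TP53INP1 also did not pass there, with changes of the same direction that were not over 1.5 times smaller. The change against GM 1 to 9 is given below for the genes where it differed by over 1.5 times, and the counts of a list where they moved by that much or their balance turned.

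**Figure D1:**
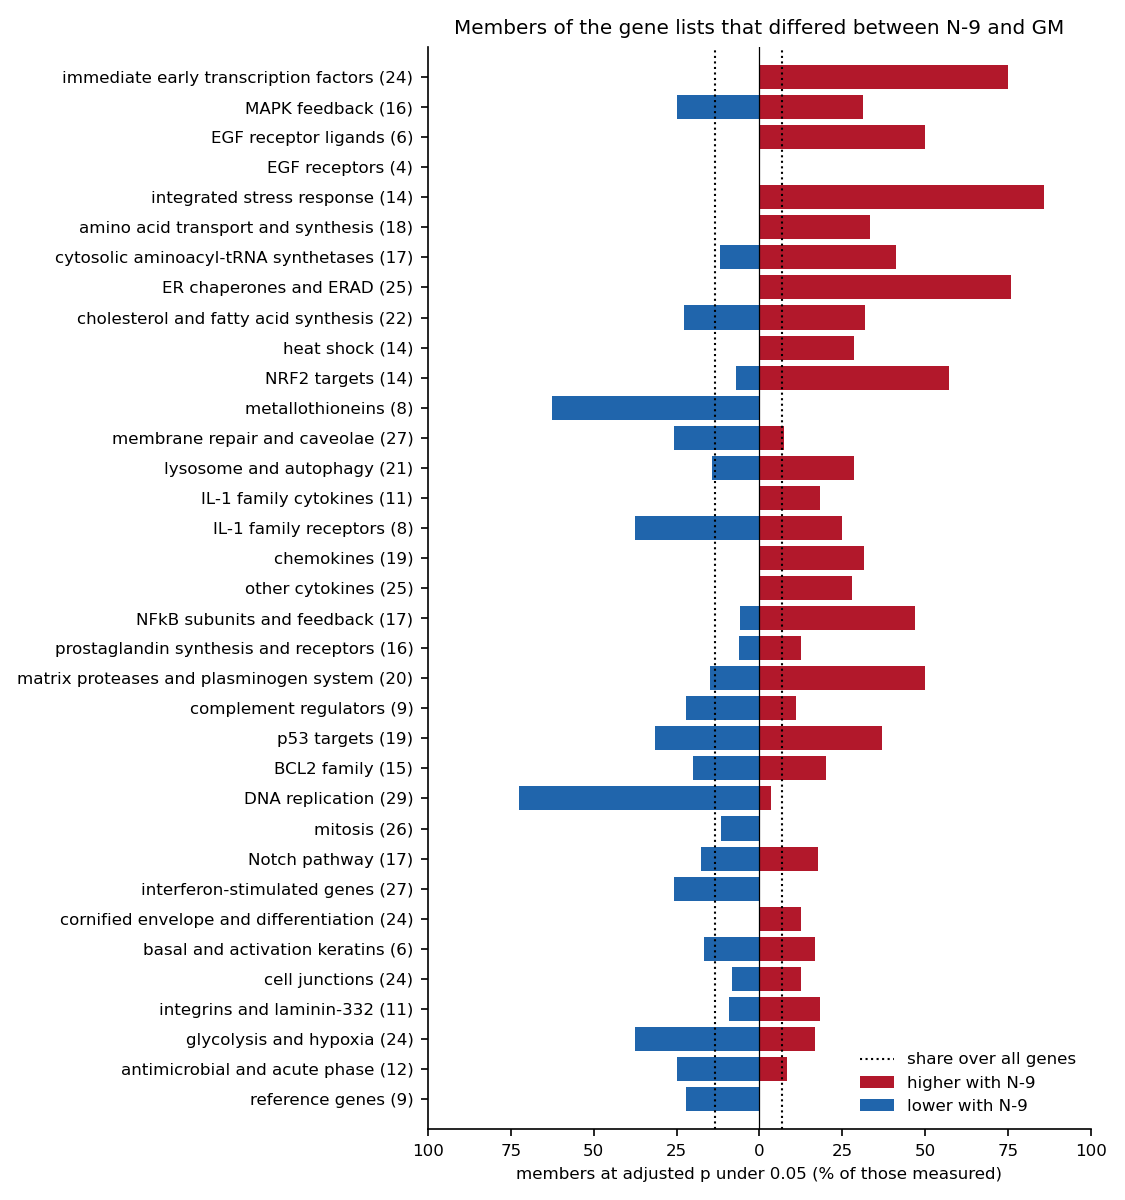
Share of the measured members of each gene list, other than the marker lists and the list the study had selected, that were higher (red, to the right) or lower (blue, to the left) with N-9 than in GM at an adjusted p under 0.05 (limma), with the number of measured members in parentheses. The dotted lines mark the share over all 19678 genes (6.69% higher and 13.3% lower). The integrated stress response, ER chaperone and immediate early lists reach furthest to the right, and the DNA replication list furthest to the left.

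The immediate early transcription factors rose as a group. Of 24 measured, 18 were higher and none was lower, and their median log2 change was 1.16 (range -0.25 to 3.78). ATF3, a stress-induced member of the ATF/CREB family, ranged from 6.46 to 9.80 (median 8.01) in GM and from 10.04 to 14.37 (median 10.68) with N-9. Its groups did not overlap, and the log2 change was 3.78 (SE 0.29, adjusted p = 4.83e-20). FOS, a subunit of AP-1, ranged from 5.77 to 10.71 (median 8.79) in GM and from 10.15 to 13.61 (median 10.80) with N-9. All 9 N-9 arrays exceeded the GM median of FOS, but only 5 exceeded the highest GM array (log2 change 2.76, SE 0.36, adjusted p = 1.75e-09). NR4A1, a nuclear receptor of the same early class, rose by log2 2.79 (SE 0.36) and FOSB by 1.88 (SE 0.43). ZFP36, which binds and destabilizes cytokine mRNAs, rose by log2 1.68 (SE 0.15) with no overlap, from 10.53 to 11.85 in GM and 11.92 to 14.11 with N-9. Members that did not pass included MYC (log2 change 0.03), which was already at a median of 13.63 in GM, SRF (-0.19) and FOSL2 (-0.25).

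The size of this response differed between runs. FOS lay between 13.50 and 13.61 in N-9 replicates 4 to 6 and between 10.15 and 10.85 in the other 6 N-9 arrays, so the mean change of the run was 4.80 against 1.59 in replicates 1 to 3 and 1.90 in replicates 7 to 9. ATF3 gave 2.53, 6.25 and 2.57 in the order of the replicate numbers, and NR4A1 was 5.16 above the GM mean in replicates 4 to 6. FOSB was below the GM mean in replicates 1 to 3 (-0.59) and 5.01 above it in replicates 4 to 6. Without replicates 4 to 6 the number of members that were higher fell from 18 to 12 and 1 was lower. ATF3 stayed above every GM array in all 3 runs.

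**Figure D2:**
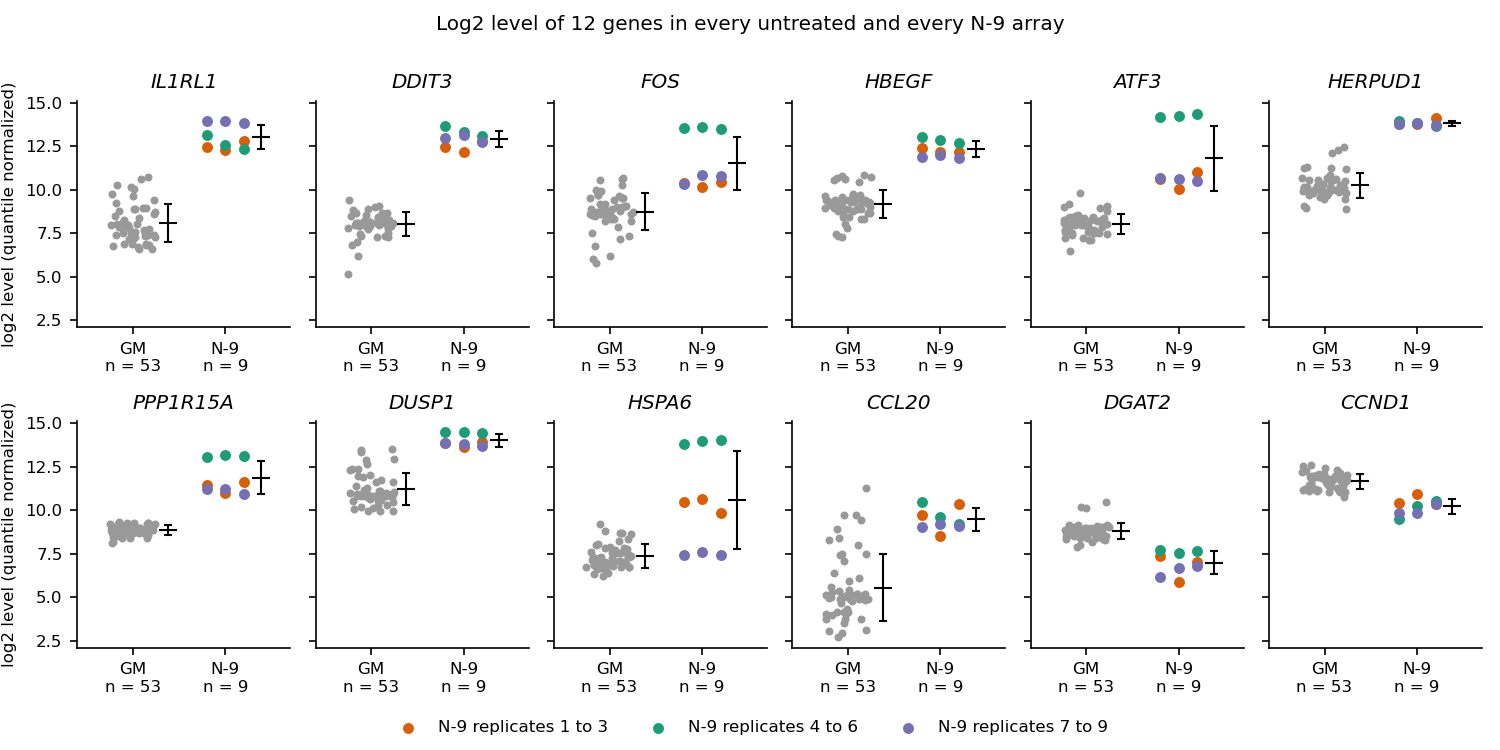
Quantile-normalized log2 level of 12 genes in each of 53 GM arrays (grey) and 9 N-9 arrays, coloured by run of 3 replicate numbers, with the mean and SD of each group beside the points. IL1RL1, DDIT3, HBEGF, ATF3, HERPUD1, PPP1R15A and DUSP1 show no overlap, HSPA6 separates into 3 levels by run, and CCL20 overlaps the highest GM arrays.

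The feedback regulators of the MAP kinases split. Of 16, 5 were higher and 4 lower, with a median of 0.28, and 6 were higher and 1 lower against GM 1 to 9. DUSP1, a nuclear phosphatase of p38, JNK and ERK, rose in every array, from 9.92 to 13.49 (median 10.91) in GM to 13.62 to 14.52 (median 13.86) with N-9. The log2 change was 2.82 (SE 0.26, adjusted p = 7.14e-16). DUSP10, which acts on p38 and JNK, rose by 2.43 (SE 0.25) and DUSP5, which acts on ERK, by 1.80 (SE 0.20), the latter with no overlap. ERRFI1, an inhibitor of the EGF receptor, rose by 1.53 (SE 0.17). DUSP6, the cytoplasmic ERK phosphatase, gave 0.21 (adjusted p = 0.639). DUSP7 was lower (log2 change -0.93, adjusted p = 0.000157) together with SPRED1 (-0.23 against GM 1 to 9, where it did not pass), SPRED2 and SPRY1 (-1.39 against GM 1 to 9, and adjusted p = 0.0535 with runs as a block), but the fall of DUSP7 came from replicates 4 to 6 (-2.57, against 0.10 and -0.33 in the other runs).

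Among 6 EGF receptor ligands, HBEGF, EREG and NRG1 rose and BTC, TGFA and EGF did not pass the test (median 0.71). HBEGF, which is made as a membrane-bound precursor, lay between 7.31 and 10.86 (median 9.26) in GM and between 11.83 and 13.03 (median 12.18) with N-9. Every N-9 array lay above every GM array, with a log2 change of 3.15 (SE 0.24, adjusted p = 3.44e-20) and changes of 3.06, 3.68 and 2.72 in the 3 runs. The other bright HBEGF probeset gave 3.12 (SE 0.16) and the remaining 2, which were dim, did not pass. EREG (10.21 to 13.62 in GM, 11.85 to 13.91 with N-9) rose by 1.33 (SE 0.26), and by 2.06 against GM 1 to 9. NRG1 rose by 0.91 (SE 0.24), with 2.60 in replicates 7 to 9 against 0.33 and -0.21 in the other runs. None of the 4 EGF receptor genes passed the test (median -0.12), and EGFR itself gave 0.22 (SE 0.14).

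Genes of the integrated stress response formed the list with the largest share of members that rose. Of 14 measured, 12 were higher and none was lower, with a median log2 change of 1.35, and the 12 also passed with runs as a block. DDIT3, the transcription factor CHOP, lay between 5.16 and 9.40 (median 8.09) in GM and between 12.17 and 13.66 (median 12.99) with N-9. The groups lay far apart, with a log2 change of 4.91 (SE 0.20, adjusted p = 1.05e-38), a fold of 30.1. CHAC1, a glutathione-degrading enzyme induced by ATF4, rose from 3.61 to 8.58 (median 6.78) to 9.67 to 10.94 (median 10.31). Its groups did not overlap either (log2 change 3.59, SE 0.36). PPP1R15A (GADD34), which directs dephosphorylation of eIF2α, was narrow in GM (8.14 to 9.30, median 8.88) and rose to 10.92 to 13.15 (median 11.46). This change was 2.99 (SE 0.16, adjusted p = 6.87e-31). SESN2, a sestrin that restrains mTORC1, rose by 2.16 (SE 0.18), again with no overlap.

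Genes upstream in the pathway were higher as well. ATF4 (10.94 to 13.49 in GM, 13.41 to 14.17 with N-9) rose by log2 1.26 (SE 0.20), its partner CEBPG by 1.29 and EIF2AK3, which encodes PERK, by 0.66 (1.35 against GM 1 to 9). These are mRNA levels, and ATF4 is also set by translation, which arrays do not measure. TRIB3, an inhibitor of ATF4 and AKT, rose by 1.59 (SE 0.23), with 2.39 and 2.27 in replicates 1 to 3 and 7 to 9 and 0.10 in replicates 4 to 6. VLDLR (0.07) and ATF5 (-0.30) did not pass.

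Fewer genes of amino acid supply moved. Of 18, 6 were higher and none was lower (median 0.35). CTH, which makes cysteine from cystathionine, ranged from 6.28 to 11.43 in GM and from 9.37 to 11.52 with N-9, and rose by 2.27 (SE 0.40, adjusted p = 5.91e-06). SLC7A11, the cystine importer, rose by 2.09 (SE 0.26), and both groups of arrays overlapped for either gene. MTHFD2 (0.61, and 1.13 against GM 1 to 9) and the glutamine transporter SLC38A2 (0.51) were also higher. ASNS, asparagine synthetase and a standard ATF4 target, gave 0.94 with SE 0.45 (adjusted p = 0.145): it was 1.61 and 1.59 above the GM mean in replicates 1 to 3 and 7 to 9 and -0.38 in replicates 4 to 6. Of 17 cytosolic aminoacyl-tRNA synthetases, 7 were higher and 2 lower, with a median of 0.17. This balance turned with median centring (2 higher and 3 lower) and without replicates 7 to 9 (2 and 3). Against GM 1 to 9, 6 were higher and 1 was lower. EPRS1 (0.87, SE 0.19) and AARS1 (0.80, SE 0.13) had the largest rises, LARS1 (0.56) no longer passed with runs as a block (adjusted p = 0.0882), and RARS1 fell by 1.06 with SE 0.16. Against GM 1 to 9 EPRS1 gave 0.23 (adjusted p = 0.363) and RARS1 -0.36 (adjusted p = 0.453), and neither passed, while CARS1 gave 0.84 and TARS1 0.57 there, and 0.51 and 0.32 with all GM arrays. Of the 6 synthetases whose promoters hold the ATF4 composite letters, AARS1, GARS1, CARS1 and TARS1 were higher, and IARS1 (0.15) and NARS1 (-0.15) did not pass.

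ER chaperones and ERAD genes rose broadly. Of 25, 19 were higher and none was lower, with a median log2 change of 0.96, 17 passed with runs as a block, and 13 passed against GM 1 to 9. HERPUD1, a membrane protein of ERAD, rose from 8.92 to 12.44 (median 10.11) in GM to 13.67 to 14.15 (median 13.81) with N-9. The N-9 arrays lay close together, and the change of 3.57 (SE 0.20, adjusted p = 2.88e-28) was 3.65, 3.56 and 3.50 in the runs. DNAJB9, a co-chaperone of HSPA5, ranged from 8.02 to 11.15 in GM and from 10.19 to 12.45 with N-9, and rose by 2.99 (SE 0.19). HSP90B1, whose promoter is shown above, rose without overlap from 9.67 to 13.03 to 13.37 to 13.89 (log2 change 1.82, SE 0.24, and 0.98 against GM 1 to 9), and XBP1 likewise from 10.33 to 12.28 to 12.39 to 12.65 (1.40, SE 0.12). A second HSP90B1 probeset gave 0.68 and did not pass. HSPA5, near the top of the scale in GM already (12.62 to 14.79), reached 14.61 to 15.07 and rose by 1.12 (SE 0.15). SDF2L1 rose by 1.84 (SE 0.17), with 0.58 in replicates 4 to 6 against 2.44 and 2.50 in the other runs. EDEM1 (0.39), DERL1 (-0.02), PDIA3 (-0.20), CANX (0.17), DERL3 (0.30) and ATF6 (0.20) did not pass. Of the 8 genes whose promoters hold the ERSE, HSPA5, HSP90B1, XBP1, CRELD2, CALR, ERO1B and PDIA6 were higher (PDIA6 with adjusted p = 0.0732 with runs as a block), and CANX did not pass. Against GM 1 to 9 CRELD2 (0.33) and CALR (0.22) did not pass.

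The runs ordered the lists differently. In replicates 4 to 6 the median change of the immediate early genes was 1.65, against 0.73 and 0.84 in replicates 1 to 3 and 7 to 9, while that of the ER chaperones was 0.31 against 1.40 and 0.91 and that of the integrated stress response 0.75 against 1.42 and 1.59. The mitosis list had medians of -1.22, 0.74 and -0.25 in the 3 runs. These differences between runs of one treatment were not tested.

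**Figure D3:**
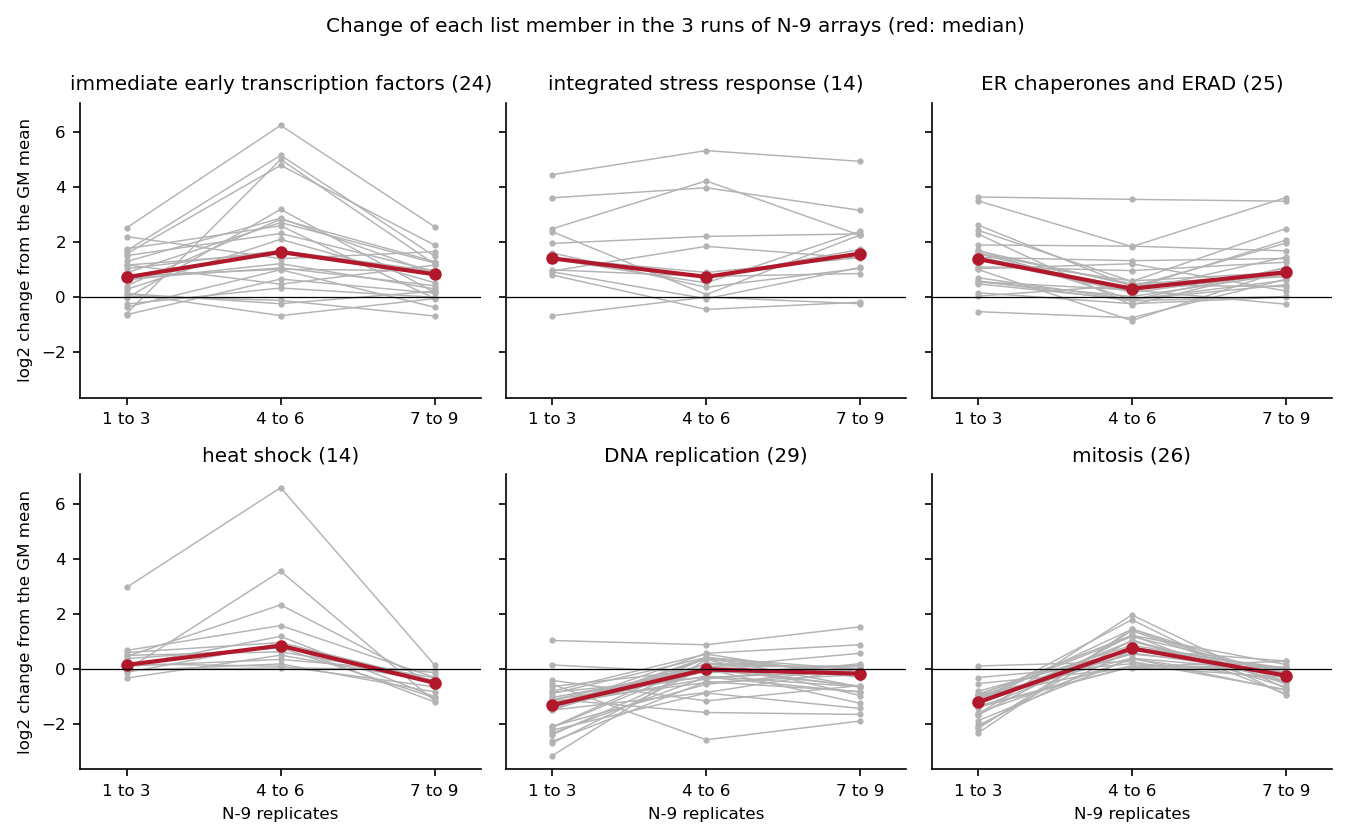
Log2 change from the GM mean of each member (grey, joined per gene) and its median (red) in N-9 replicates 1 to 3, 4 to 6 and 7 to 9, for 6 gene lists with the number of members in parentheses. Immediate early and heat shock genes are highest in replicates 4 to 6, ER chaperones are lowest there, and the mitosis medians lie at -1.22, 0.74 and -0.25.

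Cytosolic heat shock genes moved little apart from HSPA6, a strictly inducible HSP70. Of 14 genes 4 were higher and none was lower (median 0.10), and 1 was higher against GM 1 to 9. HSPA6 ranged from 6.23 to 9.17 in GM. In N-9 replicates 1 to 3 it lay between 9.86 and 10.61, in replicates 4 to 6 between 13.79 and 14.02 and in replicates 7 to 9 between 7.42 and 7.60, so the last run sat within the GM range. The log2 change over all 9 arrays was 3.23 (SE 0.36, adjusted p = 5.09e-12), and a second HSPA6 probeset gave 2.84 (SE 0.31). These values take the arrays as independent and do not cover the spread between the runs. The co-chaperones DNAJB1 (0.64) and DNAJB4 (0.74) and the HSP110 protein HSPH1 (0.37) followed the same order of runs. DNAJB4 gave 1.22 against GM 1 to 9. Without replicates 4 to 6, it gave -0.05, and 1 member of the list was higher and 4 lower. Major chaperones whose promoters also hold the HSE letters did not pass, namely HSP90AA1 (0.10), HSP90AB1 (-0.10), DNAJA1 (-0.14) and HSPD1 (-0.02).

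Of 14 target genes of NRF2, the regulator of antioxidant defence, 8 were higher and 1 lower (median 0.43). SQSTM1 (p62), an autophagy receptor that also binds the NRF2 inhibitor KEAP1, rose without overlap from 9.46 to 11.66 (median 10.27) to 11.81 to 12.85 (median 12.24). The change was 1.87 (SE 0.19, adjusted p = 1.8e-13), and 3 of its 5 probesets passed. HMOX1, heme oxygenase, rose by 1.01 (SE 0.17, and 1.56 against GM 1 to 9), whereas NQO1 (0.23) and GCLM (0.20) did not pass. AKR1B10 fell by 0.99 (adjusted p = 0.0262, 0.0694 with runs as a block), and -0.55 was its change against GM 1 to 9, where it did not pass. Of 8 metallothioneins, which bind zinc and copper, 5 were lower and none was higher (median -0.26). The count was 3 with runs as a block, 3 without normalization, where the median was -0.06, and none against GM 1 to 9. MT1X, close to the top of the scale, went from 14.15 to 14.65 in GM to 13.99 to 14.24, with a log2 change of -0.34 (SE 0.04), which was -0.13 (adjusted p = 0.3) without normalization and -0.28 (adjusted p = 0.0805) against GM 1 to 9. A second MT1X probeset gave -0.01 and did not pass. Metallothionein genes are near-identical, so their probesets may share transcripts.

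Genes that act at the membrane itself did not rise together. Of 27 genes of membrane repair and caveolae, 2 were higher (CHMP2B and CHMP4C of the ESCRT-III complex, by 0.40 and 0.37, the latter with adjusted p = 0.073 with runs as a block) and 7 lower. Against GM 1 to 9 CHMP2B gave -0.02 and CHMP4C 0.96, and 1 gene was higher and 4 were lower. The list median was -0.08, and 0.02 without normalization. CAVIN1, which coats caveolae, went from 12.11 to 13.16 in GM to 11.35 to 12.28 (log2 change -0.84, SE 0.10), and 6 of 9 arrays lay below every GM array. CAV1 fell by 0.62 in the fit, but its 3 low arrays were replicates 1 to 3 (12.88 to 13.23) and the other 6 (14.73 to 14.85) sat inside the GM range of 14.11 to 15.04. CAVIN2 likewise gave -4.47 in replicates 1 to 3 and 1.36 in replicates 4 to 6, and its change turned to 0.09 without the former and was -0.65 (adjusted p = 0.73) against GM 1 to 9. Annexins A1, A2 and A5 gave 0.15, 0.08 and 0.14. Of 21 genes of lysosomes and autophagy, 6 were higher and 3 lower (median 0.02). With median centring 3 were higher and 6 lower (median -0.13), and against GM 1 to 9 4 were higher and none was lower. MAP1LC3B, the marker protein of autophagosomes, rose by 0.93 (SE 0.11). ATG5, which acts in their formation, rose by 0.33 and lay above all GM arrays, but gave 0.12 (adjusted p = 0.424) with median centring. MCOLN1, a lysosomal calcium channel, gave -0.83 (adjusted p = 0.00634, 0.106 with runs as a block), and -0.06 against GM 1 to 9. In cholesterol and fatty acid synthesis 7 of 22 genes were higher and 5 lower (median -0.15), a balance that turned with median centring (2 and 8), against GM 1 to 9 (2 and 6) and without replicates 7 to 9 (3 and 6), and 3 were higher and 2 lower with runs as a block. INSIG1 (0.88) and HSD17B7 (0.77) rose, and ACLY, which supplies cytosolic acetyl-CoA, fell by 0.70 (SE 0.09), with 8 of 9 arrays below every GM array.

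IL1RL1 had the largest log2 change of the genes named here. It encodes ST2, the receptor of IL-33, in a membrane-bound and a secreted form. The GM arrays ranged from 6.62 to 10.72 (median 7.84) and the N-9 arrays from 12.28 to 13.97 (median 12.83). No arrays overlapped, and the log2 change was 4.95 (SE 0.32, adjusted p = 2.5e-24), a fold of 30.9. Changes were 4.42, 4.61 and 5.82 in the 3 runs. Of its 4 probesets 3 passed, the other bright ones with 1.05 (SE 0.13) and 1.33 (SE 0.21), and a dim one gave -0.33 (adjusted p = 0.369). Its ligand IL33 gave -0.03 (adjusted p = 0.977). The co-receptor IL1RAP fell by 1.16 with SE 0.16, from 9.62 to 11.64 in GM to 8.75 to 10.37, although a dimmer IL1RAP probeset gave 0.23 and did not pass. Of the 8 receptors in this family 2 were higher and 3 lower (median -0.19, and 0.03 without normalization), but 1 and 1 against GM 1 to 9. IL1RL2 (-1.40) and IL1R1 (-0.51) were lower, and neither passed with runs as a block (adjusted p = 0.102 and 0.0966).

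Of 11 IL-1 family cytokines, IL1A and IL1B were higher and none was lower (median 0.11). Against GM 1 to 9, 4 were higher and none was lower (median 0.55). IL1A ranged from 8.67 to 13.31 (median 12.04) in GM and from 12.58 to 14.03 (median 13.24) with N-9, and rose by 1.59 (SE 0.33, adjusted p = 0.000122). IL1B rose by 0.83 (SE 0.22). Both were bright in GM already, and the groups overlapped. IL36G (0.11) and IL18 (-0.06) did not pass.

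Of 19 chemokines, 6 were higher and none was lower, with a median of 0.05. They were CCL20, CCL26 and the neutrophil attractants CXCL8, CXCL3, CXCL2 and CXCL1. CXCL8 (IL-8) ranged from 2.71 to 9.85 (median 6.27) in GM and from 7.51 to 12.80 (median 9.68) with N-9. It rose by 3.85 (SE 0.47, adjusted p = 2.27e-10), and the 3 arrays above every GM array formed the run with the largest change (6.21, against 1.79 and 3.55). CCL20, the ligand of CCR6, rose by 3.93 (SE 0.55, and 6.02 against GM 1 to 9) from a GM range of 2.69 to 11.25, and no N-9 array (8.51 to 10.48) exceeded the highest GM array. CXCL3 rose by 2.86 (SE 0.30) and CXCL2 by 2.69 (SE 0.27). CXCL10 (-0.11), CXCL9 (-0.22) and CXCL11 (-0.98), the interferon-induced ligands of CXCR3, did not pass. CXCL14, which keratinocytes make at rest, gave -2.11 with SE 0.95 (adjusted p = 0.117).

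Of 25 other cytokines and growth factors, 7 were higher and none was lower (median 0.38). GDF15, a stress-induced member of the TGF-β superfamily, rose without overlap from 2.15 to 8.97 (median 6.29) to 9.39 to 12.26 (median 10.45). The change was 4.50 (SE 0.49, adjusted p = 1.88e-12), and the 2 other, dim GDF15 probesets did not pass. VEGFA, the vascular growth factor, rose by 2.17 (SE 0.21), with all 4 of its probesets higher. IL6 lay between 5.97 and 6.82 in N-9 replicates 1 to 3, within the GM range of 5.78 to 7.46, between 10.67 and 11.03 in replicates 4 to 6 and between 8.21 and 9.07 in replicates 7 to 9. Its mean change was 1.99 (SE 0.25). TSLP, an epithelial cytokine of allergic inflammation, had another order, with 3.71 in replicates 7 to 9, 2.07 in replicates 1 to 3 and 0.00 in replicates 4 to 6 (mean 1.92, SE 0.51, and 3.19 against GM 1 to 9). TNF (0.23) and CSF3 (0.12) did not pass.

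Of 17 genes for NFkB subunits and feedback, 8 were higher and 1 lower (median 0.29), and 4 were higher and 2 lower against GM 1 to 9. TNFAIP3 (A20), which ends NFkB signaling, ranged from 9.26 to 13.34 in GM and from 10.95 to 13.42 with N-9 (log2 change 1.64, SE 0.20). NFKBIA, which holds NFkB in the cytoplasm, rose by 1.36, with 3.18 in replicates 4 to 6 and 0.10 in replicates 7 to 9, and its other probeset did not pass. TNIP1, another inhibitor in the pathway, gave 0.09. PTGS2 (cyclooxygenase-2) rose by 3.16 (SE 0.43), from 7.52 to 13.24 to 12.46 to 14.13, and was with the receptor gene PTGER4 (1.74) the only member of 16 prostaglandin genes that was higher. PTGER2, another receptor of prostaglandin E2, was the 1 that was lower (log2 change -2.43, SE 0.45), but it did not pass against GM 1 to 9 (-1.18, adjusted p = 0.276). The list median was 0.00. The study had selected a list of genes common to all PIC on these same arrays. Of its 19 measured genes 16 were higher and CAVIN2 was lower (median 1.59), which follows from that selection and is not independent evidence.

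Of 20 genes of matrix proteases, their inhibitors and the plasminogen system 10 were higher and 3 lower (median 0.32), and 5 and 1 against GM 1 to 9. MMP10 (stromelysin-2) rose without overlap, from 5.20 to 9.27 (median 8.14) to 9.47 to 12.28 (median 10.98). Its change was 3.33 (SE 0.33, adjusted p = 3.25e-14). MMP1, the interstitial collagenase, rose by 3.05 (SE 0.51, and 1.78 against GM 1 to 9) and MMP3 by 2.66 (SE 0.38). PLAUR, the urokinase receptor, rose by 2.08 (SE 0.24), PLAU by 0.89 and the sheddase ADAM17 by 0.56. TIMP2 (-0.78), HTRA1 (-0.76, and -1.18 against GM 1 to 9) and PLAT (-0.59, adjusted p = 0.0586 with runs as a block) were lower, while TIMP1 was higher (0.59). Against GM 1 to 9 ADAM17 (0.14), PLAT (-0.22) and TIMP1 (0.19) did not pass. Among 9 complement genes (median -0.39), 1 was higher and 2 lower. CD55 (decay-accelerating factor) rose by 2.22 (SE 0.24), and C3 fell by 1.14 with SE 0.31.

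Death and growth genes moved in both directions. Of 15 BCL2 family genes 3 were higher and 3 lower (median 0.10, and -0.03 with median centring). BCL2L11 (BIM), a pro-apoptotic BH3-only protein, was tight in GM (8.72 to 9.85) and rose without overlap to 10.02 to 11.93 (log2 change 1.45, SE 0.12), and 6 of its 7 probesets were higher. PMAIP1 (NOXA) rose by 1.42 (SE 0.22), and BCL2 gave -0.78 (adjusted p = 0.0141, 0.239 with runs as a block), and -0.15 against GM 1 to 9, where 2 members were higher and none lower. Of 19 p53 targets 7 were higher and 6 lower (median -0.07), but 5 and 7 with median centring and 6 and 1 against GM 1 to 9. The higher ones included GDF15, CDKN1A (1.47, SE 0.23) and PLK3 (1.36, SE 0.13), whose groups did not overlap, and the lower ones TP53INP1 (-1.29) and ZMAT3 (-0.99). Of 3 PLK3 probesets 1 passed. MDM2, a direct target of p53, gave -0.12 (adjusted p = 0.741). The E6 protein in these cells is known to promote degradation of p53.

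DNA replication genes were lower. Of 29, 21 were lower and 1 higher, with a median log2 change of -0.64, but the result leaned on replicates 1 to 3 (median -1.32, against -0.02 and -0.18). Without these 3 arrays 7 genes were lower, and against GM 1 to 9 4 were. CCND1 (cyclin D1), which links growth factor signaling to the cell cycle, fell in every run (-1.10, -1.59 and -1.66). It ranged from 10.78 to 12.57 in GM and from 9.51 to 10.90 with N-9, with 8 of 9 arrays below every GM array and a log2 change of -1.45 (SE 0.13, adjusted p = 1.27e-15). A second, dimmer CCND1 probeset gave -0.22 (SE 0.23, adjusted p = 0.575) and did not pass. CCNE2 (cyclin E2) fell by 1.52 with SE 0.31, and gave -0.85 (adjusted p = 0.0614) against GM 1 to 9. The licensing factor CDT1 fell by 1.31, with -2.64 in replicates 1 to 3. CDC25A, the phosphatase that activates CDK2, fell by 1.68 with SE 0.41, but gave -0.49 (adjusted p = 0.755) against GM 1 to 9 and did not pass without replicates 4 to 6 either (-1.23, adjusted p = 0.0695). CDC6 was the member that rose (1.14, SE 0.15), by 1.03, 0.87 and 1.53 in the runs. Of 26 mitosis genes 3 were lower and none was higher (median -0.22). KIF11, AURKA and CCNB1 gave -0.76, -0.56 and -0.54, and KIF11 and CCNB1 did not pass with runs as a block (adjusted p = 0.0869 and 0.091). The list turned with the arrays used: 15 were lower without replicates 4 to 6, none was without replicates 1 to 3, and against GM 1 to 9 3 were higher and none lower. KIF11, AURKA and CCNB1 gave 0.31, 0.07 and 0.27 there and did not pass.

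In the Notch pathway 3 of 17 genes were higher and 3 lower (median 0.11), but 2 and 5 with median centring (median -0.10) and 1 and 3 against GM 1 to 9. LFNG (Lunatic fringe), the glycosyltransferase that modifies Notch receptors, had the largest fall among the named genes, from 7.73 to 10.00 (median 8.84) to 4.45 to 8.01 (median 7.01). Its change was -2.43 (SE 0.29, adjusted p = 9.18e-11), with -3.85, -2.19 and -1.24 in the runs, and a dimmer LFNG probeset gave -0.99 and did not pass. HES1, a target of Notch and of other signals, rose by 1.83 (SE 0.23), with 3.68 in replicates 4 to 6.

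Other genes that fell most had varied roles. DGAT2, which completes triglyceride synthesis, fell in all arrays below the GM range, from 7.90 to 10.46 (median 8.77) to 5.88 to 7.72 (median 7.00), by log2 -1.82 with SE 0.18. RBM14, a coactivator and RNA-binding protein, fell by 2.01 with SE 0.20 at its bright probeset, and its 2 dimmer probesets did not pass. HMGA2, an architectural chromatin protein, went from 11.13 to 13.24 to 9.39 to 12.22 (-1.63, SE 0.19), most of it in replicates 4 to 6 (-3.17), and 2 of its 9 probesets passed. ZC3HAV1, a zinc finger protein that restrains viral RNA, fell by 1.68 (SE 0.17). The log2 change was -1.92 (SE 0.22, and -1.25 against GM 1 to 9) for NANOS1, a translational repressor, -1.78 (SE 0.50) for LRRC43, -1.69 (SE 0.17) for TOMM40L and -1.66 (SE 0.25) for RAB7B. ARRDC4 and TXNIP, α-arrestins that respond to glucose, gave -1.64 (SE 0.23) and -1.47 (SE 0.31), the latter -0.70 (adjusted p = 0.518) against GM 1 to 9. The glucose transporter gene SLC2A3 rose without overlap from 5.72 to 9.66 to 10.34 to 11.76 (2.54, SE 0.25). Of 24 genes of glycolysis and hypoxia 4 were higher and 9 lower (median -0.18), while without normalization 5 were higher and 2 lower. Against GM 1 to 9, 1 was higher and 6 were lower.

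Of 27 interferon-stimulated genes 7 were lower than in GM and none was higher (median -0.51). The count of lower genes was 2 without replicates 1 to 3 and 3 with runs as a block, while against GM 1 to 9 11 were lower and OASL was higher (0.67, adjusted p = 0.0396). IFI27, MX1 and IFI44L, which did not pass with all GM arrays (-1.22, -1.10 and -0.99), gave -2.40, -2.40 and -2.47 there and passed. SAMHD1, a dNTP hydrolase that restricts viruses, fell by 1.15 (SE 0.27), and USP18 (-1.32), GBP1 (-1.14) and GBP2 (-1.06) were lower with adjusted p = 0.0252, 0.0178 and 0.0106, which became 0.0737, 0.0535 and 0.0796 with runs as a block. USP18 gave -0.79 against GM 1 to 9. A second GBP2 probeset gave 0.32 and did not pass. Of 24 genes of the cornified envelope and differentiation, 3 were higher and none was lower (median -0.57), but 1 and 2 with median centring and 1 and 3 without replicates 4 to 6. SPRR2B rose by 2.62 (SE 0.53), all N-9 arrays (11.11 to 12.55) lying inside the GM range of 6.35 to 14.27. RNASE7, an antimicrobial ribonuclease of squamous epithelia, went from 6.30 to 9.70 in GM to 9.18 to 11.68 with N-9, a rise of 2.63 (SE 0.25). It was the 1 gene of 12 in the antimicrobial and acute phase list that rose (median -0.27). S100A7, S100A8 and SERPINA3 were lower, with log2 changes of -2.01, -0.94 and -1.45, and none of these passed with runs as a block (adjusted p = 0.0717, 0.0827 and 0.139) or against GM 1 to 9, where S100A8 gave -0.39 and SERPINA3 -0.88.

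Few barrier genes changed. Of 24 junction genes (median -0.13, and 2 higher and 6 lower with median centring) 3 were higher (CLDN4 by 2.31, OCLN by 1.13 and CLDN1 by 0.94, the last with adjusted p = 0.0935 with runs as a block) and 2 lower (GJA1 with -0.55 and CGN with -0.34). Against GM 1 to 9 CLDN4 gave 4.16, CLDN1 1.52 and GJA1 -0.31, and GJA1 did not pass. A second CLDN4 probeset gave -0.21 and did not pass, and without replicates 4 to 6 CLDN4 gave 1.58 (adjusted p = 0.092). CDH1, DSP, JUP and TJP1 gave between -0.08 and 0.02. Of 11 integrin and laminin genes (median 0.18) LAMB3 (0.88) and ITGA2 (0.68) were higher and ITGAV (-0.48) lower. Against GM 1 to 9 LAMB3 gave -0.23 and ITGAV -0.13, and no gene of this list was higher. Among 6 basal and activation keratins (median -0.19, and 0.08 without normalization) 1 was higher and 1 lower. KRT34 rose by 2.07 (SE 0.56, and 3.80 against GM 1 to 9). KRT19 gave -0.40, and 0.01 once replicates 1 to 3 were left out. Of 9 reference genes TBP (-0.28, adjusted p = 0.212 with runs as a block) and PGK1 (-0.19) were lower, and of 6 markers of glandular epithelium PAX8 (0.26) was higher but not with runs as a block (adjusted p = 0.161) and -0.01 with median centring. Neither TBP (-0.11) nor PAX8 (0.10) passed against GM 1 to 9. Without normalization 4 reference genes were higher and 1 was lower.

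N-9 was next compared with the mean of the 4 other PIC, each weighted equally. Per gene, 7.64% were higher and 14.4% lower with N-9, and 3436 probesets passed both thresholds. Many stress genes were higher with N-9 than with the other PIC: 14 of 24 immediate early genes, 11 of 14 integrated stress response genes, 15 of 25 ER genes and 9 of 14 NRF2 targets. In these lists 1 immediate early gene and 1 NRF2 target were lower. The difference was 3.54 (SE 0.22) for DDIT3, 4.49 (SE 0.53) for GDF15, 3.15 (SE 0.35) for IL1RL1, 3.06 (SE 0.39) for HSPA6 and 3.10 (SE 0.39) for CHAC1. MALAT1, a nuclear long noncoding RNA, differed by 3.24 (SE 0.41), and 9 of its 12 probesets were also higher than in GM, but its rise over GM (2.27) was 0.19 (adjusted p = 0.809) against GM 1 to 9. No interferon-stimulated or differentiation gene was higher, and 20 of 27 and 16 of 24 were lower. In the other lists with a background of 14.4% lower, 16 of 29 DNA replication genes, 8 of 19 chemokines, 8 of 17 NFkB genes and 7 of 12 antimicrobial genes were lower. In each of these lists but that of NFkB, 1 gene was higher. The difference was -5.01 (SE 0.59) for IFNK, the keratinocyte interferon, -4.54 (SE 0.87) for SPRR2G, -4.13 (SE 0.77) for S100A12 and -4.09 (SE 1.03) for LORICRIN, the last 3 being products of keratinocyte differentiation. GM arrays themselves spread widely in these genes, SPRR2G from 4.23 to 14.36 and LORICRIN from 2.08 to 13.45. IFNK was also lower than in GM (-2.18, adjusted p = 0.00154), but gave 0.26 against GM 1 to 9, and the other 3 did not pass against GM. CCL20 was lower with N-9 than with the other PIC (difference -2.54, SE 0.60), and CXCL2, CXCL3 and CXCL8 gave 0.08, 0.03 and -0.55 and did not pass.

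**Figure D4:**
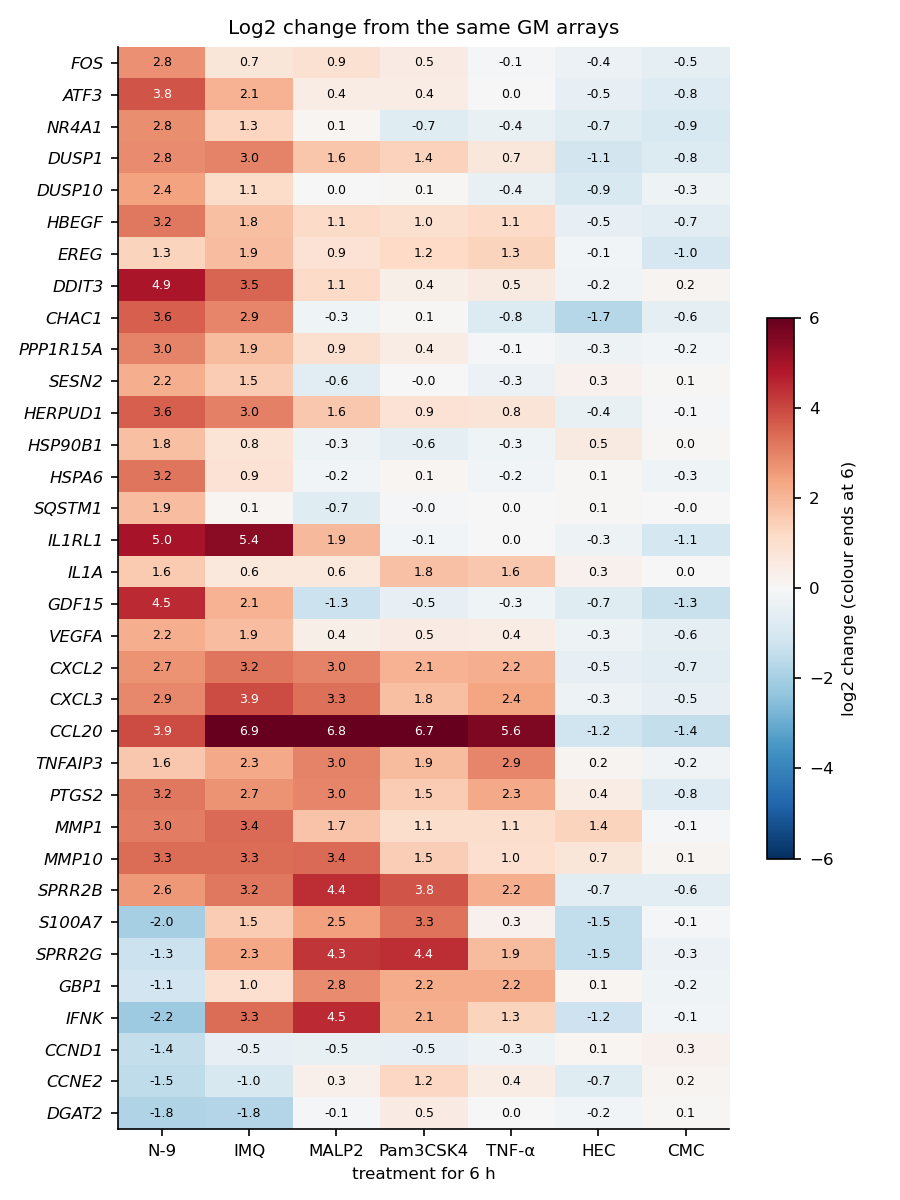
Log2 change of 34 genes against the same 53 GM arrays after each treatment (columns, printed and coloured from blue, lower, to red, higher, with the colour ending at 6). The stress genes of the upper rows are red with N-9 and in part with IMQ, the chemokines are red with all PIC, and SPRR2G, GBP1 and IFNK are blue with N-9 and red with the 4 other PIC. All columns share the GM arrays.

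Among the other PIC, IMQ had the highest medians in the integrated stress response list (1.11) and the ER list (1.00). The other 3 gave -0.16 to 0.15 and -0.10 to 0.09. In the heat shock list the IMQ median was the lowest (-0.13, against -0.08 to -0.02). IL1RL1 changed by 4.95 with N-9, 5.41 with IMQ, 1.95 with MALP2, -0.15 with Pam3CSK4 and 0.00 with TNF-α. For DDIT3 the changes were 4.91, 3.49, 1.13, 0.36 and 0.52 in the same order. A direct contrast of N-9 with IMQ was added after these values were seen, and in it 3.9% of genes were higher and 7.82% lower with N-9. IL1RL1 did not pass (-0.46, SE 0.46, adjusted p = 0.597), nor did DUSP1 (-0.17, SE 0.37), HERPUD1 (0.53, SE 0.29) or MMP10 (-0.01, SE 0.48). DDIT3 was higher with N-9 by 1.42 (SE 0.29), HBEGF by 1.34 (SE 0.35), FOS by 2.03 (SE 0.53), HSPA6 by 2.36 (SE 0.52) and SQSTM1 by 1.74 (SE 0.28). By list, 9 of 24 immediate early genes, 6 of 14 heat shock genes and 4 of 14 NRF2 targets were higher with N-9 than with IMQ and none, 1 and none were lower. Of the integrated stress response genes 3 of 14 were higher and 2 lower, and of the ER chaperones none was higher and 3 of 25 were lower. No interferon-stimulated or differentiation gene was higher with N-9 than with IMQ, and 4 of 27 and 8 of 24 were lower. LFNG was higher with N-9 than with IMQ by 1.81 (SE 0.43) and C3, S100A7 and IFNK were lower, with differences of -2.11, -3.52 and -5.53. The IMQ arrays had the larger mean ACTB 3' minus 5' difference given above. It lay between 0.90 and 2.17 in IMQ replicates 1 to 3, the IMQ arrays with displaced rows. In IMQ replicates 4 to 6 it lay between 0.36 and 0.53, and its part in these contrasts was not tested.

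Against the NIC gels, the mean of HEC and CMC, the stress lists were higher as well. Per gene 6.16% were higher and 9.67% lower, and 2131 probesets passed both thresholds. Higher than in the gels were 12 of 14 integrated stress response genes, 17 of 24 immediate early genes and 20 of 25 ER genes. Of 29 DNA replication genes 17 were lower and 1 was higher. DDIT3 was higher than with the gels by 4.95, IL1RL1 by 5.64, HBEGF by 3.73 and FOS by 3.21, and DGAT2, LFNG and CCND1 were lower, with differences of -1.77, -2.38 and -1.65. Of the interferon-stimulated genes none was higher and 3 lower than in the gels, and of the differentiation genes 3 were higher and none lower.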

How the data were processed

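RNA of Vk2/E6E7 cells was measured on HG-U133 Plus 2.0 chips (Affymetrix), 1 sample per array. The log2 signals are those the authors deposited, with 1 value per probeset and array. For these values MAS5 and GCOS 1.3 stand in the submitters' processing notes and RMA in the methods, and their form is that of MAS5, which leaves more noise in dim probesets. Arrays were grouped by their labels. GM replicate 52 (highest correlation with any other array 0.05) and TNF-α replicate 6 (equal to the mean of TNF-α replicates 1 to 3) were left out, so 103 of 105 arrays entered the fit.

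Values were quantile normalized and fitted in limma 3.58.1 (R 4.3.3, data.table version 1.17.8) with a mean for each group, moderated variances (eBayes) and p-values adjusted after Benjamini and Hochberg over 54613 probesets for each contrast. Fits were tested on simulated data. SE is that of the log2 change with all arrays taken as independent. It leaves out the correlation within runs, which the fit with runs as a block put at 0.44. No probeset was filtered. The platform annotation gave 41097 probesets a single gene and 1801 several, and did not list 11777. KRT34 and SERPINB2 were named from a supplementary table. A gene is its probeset of highest mean among those naming it alone and not on displaced rows, which leaves out 99 genes. Members of lists were counted at an adjusted p under 0.05 with no fold limit.

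The arrays, gene lists, markers and tests were chosen with earlier results of these data known. The named genes were the 15 largest rises and the 12 largest falls among the calls, passing with runs as a block, with all N-9 arrays beyond the GM median and a group mean of log2 8 or more. They further included IL1RL1, DDIT3, FOS, HBEGF, up to 4 members per list with the largest changes among those that passed, the 6 highest and 4 lowest of each of the contrasts with other PIC and gels, GAPDH and ACTB. Other list members are named as examples and were chosen after their values were seen. Alternatives were the normalization, an offset of 16 on the linear signals, a floor at log2 7, runs as a random block (duplicateCorrelation), other sets of GM and N-9 arrays and the analysis of variance of the methods. The number of arrays limits the precision.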

Additional observations from a re-analysis of the deposited data

Results flagged for a closer look

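In 2 of the 137 named genes 1 N-9 array lay apart from the other 8 by Dixon's test, and chance alone flags about 1 in 20 groups. GAPDH, which encodes a glycolytic enzyme and served as a reference gene, was lowest in N-9 replicate 9 at 14.162, with the nearest array at 14.4183 and a ratio of gap to range of 0.5586. BCL2, which encodes an inhibitor of apoptosis, was lowest in N-9 replicate 4 at 3.27589, with the nearest array at 5.35407 and a ratio of 0.5745. The change of BCL2 did not pass with runs as a block (adjusted p = 0.239), and the GAPDH value lay within the GM range.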

How the results depend on the processing

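The count of called probesets against GM (2377, with 1236 higher and 1141 lower) was 1206 (736 and 470) with an offset of 16, 970 (496 and 474) among the probesets with a mean of log2 7 or more, 1295 (674 and 621) with runs as a random block and 4085 (2028 and 2057) without N-9 replicates 7 to 9. Without normalization 2292 were higher and 627 lower, and with median centring 1225 and 1424. Leaving out single N-9 arrays gave 2166 to 2686 called, 1120 to 1391 higher and 1046 to 1300 lower. Against the other PIC 3436 probesets were called, 1889 with the offset, 1385 with the floor and 1732 with the block, and against the gels 2131, 1245, 1037 and 1177. The 259 list members that passed became 172 with the 2 excluded arrays kept and 392 under the methods' analysis of variance, and 226 to 260 without single N-9 arrays. Alternatives chosen after the data were seen left out the probesets on displaced rows or put these rows back in order, and gave 2349 and 2400 called against GM and 260 list members each. Over 137 named genes and 3273 alternative values, 2917 kept the side of the threshold, 336 no longer passed and 6 newly passed. A change of sign in a gene that passed in neither fit is among the 2917. GAPDH is such a gene (0.10, and -0.12 against GM replicates 1 to 9 alone). The other 14 values changed sign in a gene that passed in either fit. These were DNAJB4 (-0.0549) without replicates 4 to 6, CAVIN2 (0.0886) and KRT19 (0.00904) without replicates 1 to 3, PAX8 (-0.00762) with median centring, and KIF11 (0.31), AURKA (0.0684), CCNB1 (0.27), LAMB3 (-0.23) and IFNK (0.26) against GM replicates 1 to 9 alone, with or without a replicate block. The causes were not tested, except that the floor tests fewer probesets.

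Replicate numbers shared by N-9 and GM paired part of the arrays. Deviations from the group means correlated at 0.25 to 0.33 between the same numbers for N-9 replicates 1 to 6, which is close to the 0.26 within N-9 runs, and at -0.24 to -0.15 for replicates 7 to 9, whose closest GM array was replicate 53. The numbers were therefore not used as a block over all arrays. With the replicate block on GM replicates 1 to 9, 1806 probesets were called (943 higher and 863 lower) and 187 list members passed, against 1678 and 173 without the block.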

Other observations

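Beyond the gene lists, all 9 N-9 arrays also lay outside the range of all 53 GM arrays for genes that no list held, and the following were chosen after their values were seen. HDAC9, a histone deacetylase, ranged from 6.87 to 9.32 in GM and from 9.39 to 11.31 with N-9 (log2 change 2.55, SE 0.18). ZFAND2A, a zinc finger protein known to be induced by arsenite, rose by 2.32 (SE 0.20), the transcription repressor NFIL3 by 1.82 (SE 0.12), the kinase gene PIM3 by 1.80 (SE 0.13) and the antiproliferative gene BTG1 by 1.62 (SE 0.12). SELENOK, a selenoprotein of the ER membrane, rose by 1.45 (SE 0.12). FOXA2, a transcription factor of endodermal epithelia, went from 3.99 to 7.98 in GM to 8.15 to 9.32 and differed from the other PIC by 2.74. Its log2 change was 1.91 (SE 0.33), and 1.21 against GM replicates 1 to 9 alone.

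All 9 N-9 arrays lay below every GM array for 17 genes, of which 8 that no list held are given here, also chosen after their values were seen. SRSF1, a splicing factor, ranged from 12.65 to 13.60 in GM and from 11.15 to 12.49 with N-9 (log2 change -1.24, SE 0.12). The splicing regulator RBFOX2 gave -0.82 (SE 0.10), the helicase gene DHX15 -0.67 (SE 0.08) and CLP1, which acts in pre-mRNA and tRNA processing, -0.56 (SE 0.08), though -0.33 (adjusted p = 0.0511) against GM replicates 1 to 9 alone. PAFAH1B1 (LIS1), a regulator of dynein, gave -1.52 (SE 0.11). TGOLN2 and STX6, of the trans-Golgi network, gave -0.85 (SE 0.09) and -0.80 (SE 0.08), and STARD7, which carries phosphatidylcholine to mitochondria, -0.83 (SE 0.10). All genes named in these paragraphs also passed against the mean of the 4 other PIC in the same direction. Over all genes 7.64% were higher and 14.4% lower in that contrast. It uses the same N-9 arrays by which these genes were chosen, so it is not independent evidence.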
